A study of Rattus norvegicus with 49 samples.

Results

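The 9 genes described here serve to make and store the transmitter GABA or encode the peptides and calcium-binding proteins by which classes of hippocampal interneuron are told apart. They were chosen by gene symbol, and all 9 were found among the 10411 genes of the platform annotation, by 10 probe sets. RNA of CA1, dissected from the left hippocampus of 49 Fisher 344 rats, was read on Affymetrix RAE 230A arrays, 1 per animal. The ages were 3, 6, 9 and 12 months, with 9 animals each, and 23 months, with 13 animals. No animal carried a transgene or was given an agent, as far as the labels say, and all had been trained and tested in a water maze before the tissue was frozen. The design text states that 2 aged animals in poor health were left out of the oldest group.

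Interneurons are the local inhibitory cells of the hippocampus, and they are few among the pyramidal neurons that fill CA1. Glutamate decarboxylase makes GABA in 2 forms, GAD67 and GAD65, encoded by Gad1 and Gad2, and the transporter encoded by Slc32a1 loads GABA into synaptic vesicles. Parvalbumin (Pvalb) marks fast-spiking cells that inhibit the cell body, somatostatin (Sst) and neuropeptide Y (Npy) mark cells that mostly inhibit dendrites, and cholecystokinin (Cck) marks another class of basket cell. Vasoactive intestinal peptide (Vip) and calretinin (Calb2) mark cells of which many inhibit other interneurons. Pyramidal neurons also transcribe Cck, so its signal in a tissue sample is not of interneurons alone. In such samples fewer cells of a type and less RNA per cell cannot be told apart.

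Sst and Vip are textbook targets of cAMP signalling through the sequence TGACGTC, the core of the cAMP response element, and this core was sought on both strands in RefSeq promoter windows of build GRCr8. Each window ran from 250 bases before to 50 bases after the annotated start, and 7 of the 9 genes had a window. The core was found in 2 of the 7, Sst and Vip, and in 3.22% of all 33469 windows of that length. The stretches that hold it are shown because these peptides' transcripts are followed below by age and animal, and the capitals mark the core. The Sst stretch is chr11:90461510-90461569 and the Vip stretch is chr1:44470345-44470404, both on the forward strand, with the first base of the core at positions 3 and −97 from the annotated start.
Sst: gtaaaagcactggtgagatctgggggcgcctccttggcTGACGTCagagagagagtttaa
Vip: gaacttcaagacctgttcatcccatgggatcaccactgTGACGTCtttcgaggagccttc
A match of letters is a description, and the arrays measured no binding to these windows.

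The values are MAS5 signals, a linear measure of a probe set's brightness that the authors scaled to a target of 500, so signals of different genes cannot be set against each other. Array medians lay between 209 and 225, controls left out. All 10 probe sets had a signal of at least 100 on all 49 arrays, so every member passed the filter on dim genes, which kept 8093 of the 10411 genes. The tissue label was checked against defining markers. Of 8 markers of CA1 pyramidal neurons 7 were on the array, and Wfs1, which is widely used to mark CA1, had a signal of at least 4123 in every animal. Markers of neighbouring tissue also gave signal. Prox1, a transcription factor of dentate granule neurons, spanned 274.1 to 1073.2 at 3 months. Transthyretin (Ttr), the main secreted product of the choroid plexus, stood at 3908 to 16309.8 on 5 arrays, those of 3 months replicates 4, 6, 7 and 8 and 23 months replicate 11, and at 87.3 to 1123.4 on the other 44. Results that these 5 arrays move are given without them too. Scan or extraction batches are not given in the sources used here, so batches were not tested.

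The first question was whether any of the 9 transcripts differed with age. None passed the test in any comparison, while the same fit called 414 other genes by slope and 264 at 23 against 3 months. In limma's moderated F-test over the 5 ages, 0 of 9 members had an adjusted p under 0.05, against 1.88% of the 8093 genes tested. No member had an unadjusted p under 0.05 in that test either, against 9.24% of all genes. In the slope of log2 signal per month of age 0 of 9 members passed, against 5.12% of all genes (3.47% higher and 1.64% lower at later ages). At 23 against 3 months 0 of 9 passed, against 3.26% of all genes (2.41% higher and 0.853% lower), and 1 member, Vip, had an unadjusted p under 0.05, against 14.4% of all genes. At 12 against 3 months 0 of 9 passed, against 0.222%, and 2 members, Vip and Npy, had an unadjusted p under 0.05, against 7.92%. At 23 against 12 months the count was 0 of 9, against 0.358% of all genes, and no member had an unadjusted p under 0.05, against 8.22%.

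Between neighbouring ages the counts were 0 of 9 throughout. The share of all genes called was 0.0124% at 6 against 3 months, 0% at 9 against 6 months and 0% at 12 against 9 months. Calb2 at 12 against 9 months was the only member with an unadjusted p under 0.05 in these 3 comparisons. The share of all genes under that unadjusted p was 2.85%, 2.3% and 4.16% in the same order. With 9 members, counts of 0 lie near what these shares give, and they do not show that the members were level. What the data bound is the size of each difference, given below as a 95% interval of limma's fit.

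**Figure D1:**
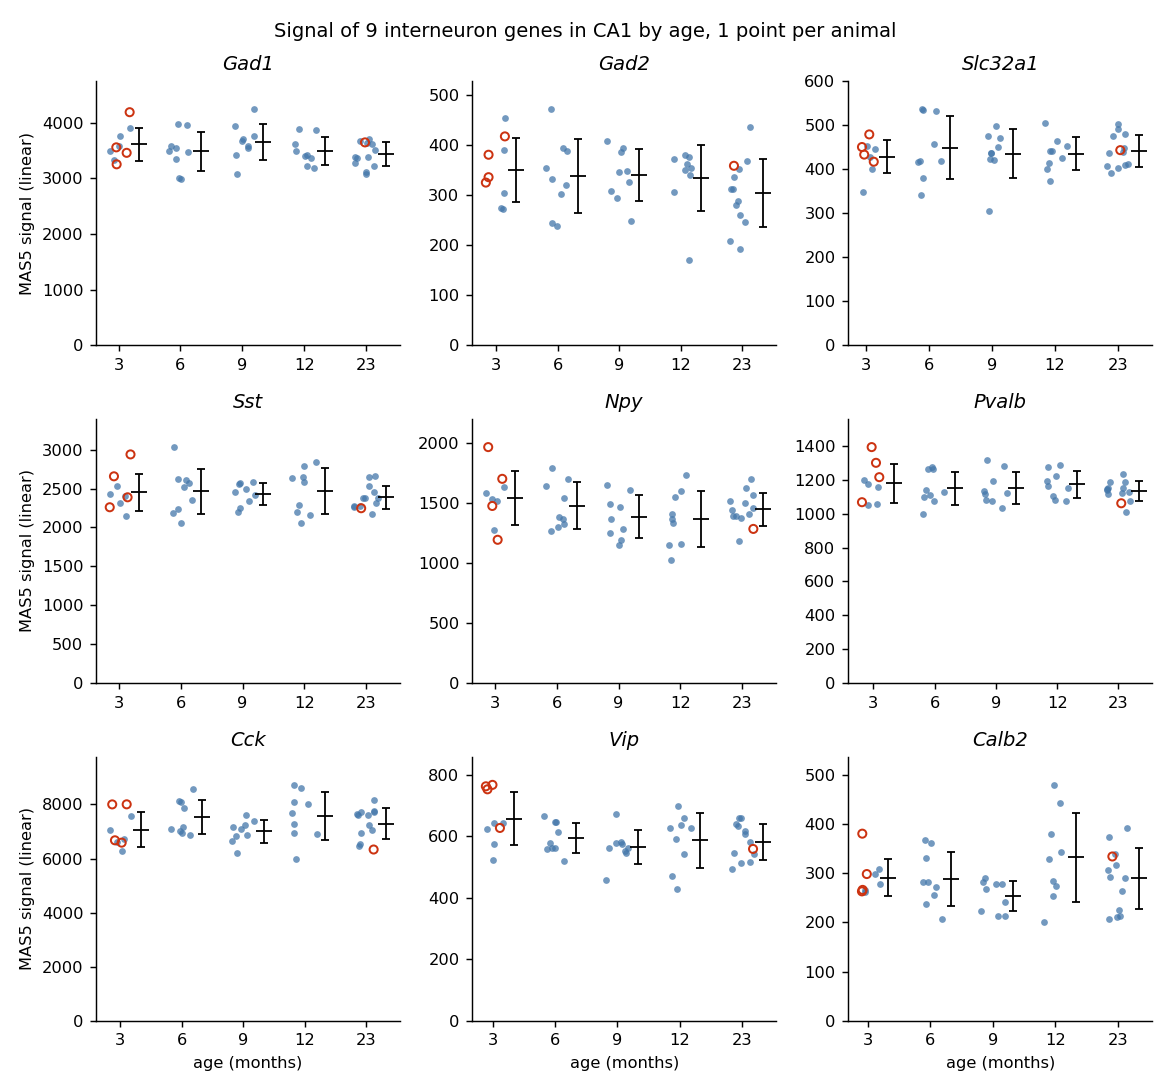
MAS5 signal (linear, scaled by the authors to 500) of the 9 genes against age in months, 1 panel per gene and 1 point per animal. Horizontal bars with whiskers are the mean ± SD of each age (n = 9, 9, 9, 9 and 13), open red circles are the 5 transthyretin-rich arrays, and every y axis starts at 0. In each panel the 23-month and 3-month animals overlap.

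At 23 against 3 months the log2 difference was below 0 for 7 members and above 0 for 2, with a median of −0.055, against a median of 0.00082 over all genes, of which 49.6% were lower. The ranges of the 13 oldest and the 9 youngest animals overlapped for all 9 members. Over all genes tested, 32 had ranges that did not overlap, which is 0.395%.

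Among the genes of GABA synthesis and storage, Gad1 varied least between animals. Its main probe set (1368344_at) averaged 3614 ± 294 at 3 months, 3485 ± 350 at 6, 3659 ± 324 at 9, 3494 ± 251 at 12 (SD, n = 9 each) and 3433 ± 218 at 23 months (SD, n = 13). The 23-month animals lay between 3079.7 and 3715.7 with a median of 3392.1, and the 3-month animals between 3252 and 4188.4 with a median of 3556.7. Of the 13 oldest animals 9 were below the 3-month mean and 4 above it. The fitted difference was −4.9%, with a 95% interval of −11.3% to 1.98%, and did not pass (limma, adjusted p = 0.554).

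A second Gad1 probe set (1370760_a_at) was dimmer. It averaged 302 ± 71.4, 287 ± 51.8, 284 ± 55.5 and 268 ± 45.2 at 3, 6, 9 and 12 months (SD, n = 9 each) and 250 ± 40.8 at 23 months (SD, n = 13), so each age had a lower mean than the one before. In a fit of every probe set its difference at 23 against 3 months was −16.1% (95% interval −28.3% to −1.99%), with an unadjusted p of 0.0277 and an adjusted p of 0.251. Its slope was −0.0124 on the log2 scale per month, with an adjusted p of 0.139. Neither passed. The annotation used here does not say which Gad1 transcripts each probe set reads, and the difference between the 2 probe sets was not tested.

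Gad2 was the least steady member. Its signal averaged 351 ± 63.8, 339 ± 74.4, 340 ± 52.1 and 335 ± 65.8 at 3, 6, 9 and 12 months (SD, n = 9 each) and 304 ± 68.2 at 23 months (SD, n = 13). The 23-month animals spanned 192 to 436.5 with a median of 312.5, against 272.3 to 453.8 with a median of 336.2 at 3 months, and 4 of the 13 oldest lay below every 3-month animal. The fitted difference was −14.0% with an interval of −27.9% to 2.6%, and it did not pass (limma, adjusted p = 0.453). On the log2 scale it was −0.218, and −0.182 without the 5 transthyretin-rich arrays (adjusted p = 0.709). The slope was −0.0106 per month (adjusted p = 0.316). With the replicate number as a block, a setting described in the last section, Gad2 passed at 23 against 3 months (−0.406, adjusted p = 0.033). It also passed by slope (adjusted p = 0.014). In that fit 23 months replicates 10, 11, 13, 14 and 15 add nothing to either result, as no other age has their numbers. Their Gad2 deviations from the 23-month log2 mean were 0.555, 0.273, 0.251, −0.041 and 0.308. The block result thus does not rest on all 13 oldest animals, and the part of this in the pass was not tested.

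Slc32a1, the vesicular transporter of GABA, averaged 429 ± 37.7, 449 ± 71.6, 436 ± 55.1 and 436 ± 38.1 at 3, 6, 9 and 12 months (SD, n = 9 each) and 442 ± 36.6 at 23 months (SD, n = 13). The oldest animals lay between 391.7 and 503.6, against 348.7 to 479.5 in the youngest. The difference was 3.19% with an interval of −6.56% to 14.0% (limma, adjusted p = 0.846). On the log2 scale it was 0.045, and 0.091 without the 5 transthyretin-rich arrays (adjusted p = 0.746). Leaving out each array in turn gave 0.0087, without 3 months replicate 1, to 0.066.

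Of the peptides, Sst had its 5 age means within 0.041 of each other on the log2 scale. The means were 2452 ± 235, 2464 ± 293, 2430 ± 141 and 2466 ± 294 at 3, 6, 9 and 12 months (SD, n = 9 each) and 2385 ± 154 at 23 months (SD, n = 13). The oldest animals spanned 2176 to 2665.1 and the youngest 2145.5 to 2938.2, and no 23-month animal lay outside the 3-month range. The difference was −2.52% with an interval of −9.91% to 5.47% (limma, adjusted p = 0.842). Without the 5 transthyretin-rich arrays its log2 difference was 0.019 in place of −0.037 (adjusted p = 0.950). Leaving out single arrays gave −0.060, without 3 months replicate 1, to −0.0035, without 3 months replicate 4.

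Npy averaged 1543 ± 227 at 3 months, 1480 ± 194 at 6, 1387 ± 180 at 9, 1371 ± 233 at 12 (SD, n = 9 each) and 1451 ± 137 at 23 months (SD, n = 13). Its lowest mean was thus at 12 months, where animals spanned 1024.1 to 1731.1 with a median of 1371.5, against 1194.8 to 1967.9 with a median of 1533 at 3 months. At 12 against 3 months the difference was −11.5% (95% interval −21.6% to −0.0849%), with an unadjusted p of 0.0485 and an adjusted p of 0.624. At 23 against 3 months it was −5.5% with an interval of −15.5% to 5.63% (limma, adjusted p = 0.712). That is −0.082 on the log2 scale, against −0.044 without the 5 transthyretin-rich arrays (adjusted p = 0.905). With single arrays left out it lay between −0.126, without 3 months replicate 8, and −0.036, without 3 months replicate 4.

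Vip came closest to passing at 23 against 3 months, where its p ranked 802 among 8093 genes. Its means were 658 ± 86.8, 595 ± 50.1, 565 ± 55.1 and 587 ± 89.5 at 3, 6, 9 and 12 months (SD, n = 9 each) and 583 ± 57.8 at 23 months (SD, n = 13). The oldest animals spanned 495 to 660.7 with a median of 582.5, against 522 to 767.8 with a median of 643.2 at 3 months, and 11 of 13 lay below the 3-month mean. The fitted difference was −11.1% (95% interval −19.6% to −1.71%), with an unadjusted p of 0.0226 and an adjusted p of 0.228. A two-sided permutation test of the same difference gave p = 0.0288, unadjusted. The later ages lay close together. At 12 against 3 months the difference was −11.0% (adjusted p = 0.581), and at 23 against 12 months it was −0.155% with an interval of −9.71% to 10.4%.

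The 3-month animals of highest Vip signal were mostly those of high transthyretin signal. Vip averaged 728, between 627.6 and 767.8, on the 4 such arrays of 3 months, and 601, between 522 and 644.9, on the other 5. At 23 months the transthyretin-rich array had a Vip signal of 559.2, and the other 12 averaged 585. Without the 5 arrays the log2 difference at 23 against 3 months was −0.043 (limma, adjusted p = 0.898), against −0.170 with them, and that at 12 against 3 months was −0.046 against −0.168. Of 8 choroid plexus markers 6 were on the array. Their summed signal ranged from 419.5 to 19684.1 at 23 months and from 422.2 to 13123.4 at 3 months, and none was at 0, though Kl, Kcne2 and Kcnj13 reached values as low as 5.7, 10.7 and 11.5. The mean log2 level of the 4 of these markers that passed the filter was set beside Vip, age means removed. Over all 49 arrays r was 0.13 (adjusted p = 0.676 by permutation), and over the 44 arrays outside the transthyretin-rich cluster it was −0.16. By age it was 0.83, −0.40, −0.35, −0.31 and −0.059 at 3, 6, 9, 12 and 23 months. The part of choroid plexus tissue in the Vip difference was not tested beyond these values.

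**Figure D2:**
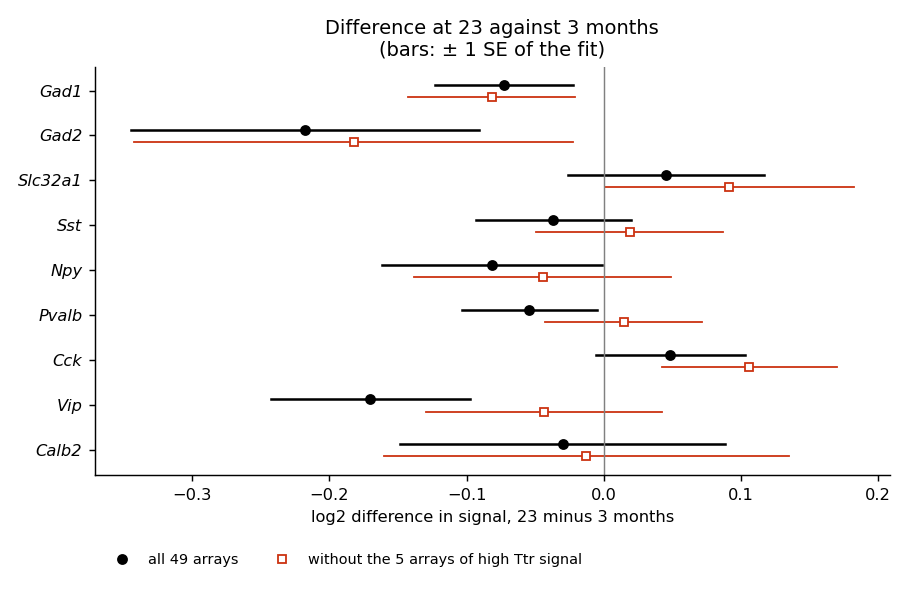
Log2 difference in signal between 23 and 3 months (23 minus 3) for each gene, on all 49 arrays (black) and without the 5 transthyretin-rich arrays (red, open), with bars of ± 1 SE of limma's fit. The Vip difference is −0.170 on all arrays and −0.043 without the 5, and those of Sst and Pvalb cross 0.

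Cck averaged 7057 ± 646, 7535 ± 634, 7010 ± 431 and 7583 ± 891 at 3, 6, 9 and 12 months (SD, n = 9 each) and 7294 ± 579 at 23 months (SD, n = 13). The means went up and down by age with no order. The oldest animals spanned 6334.9 to 8174.8 and the youngest 6271.7 to 8006.2. The difference at 23 against 3 months was 3.42% with an interval of −4.08% to 11.5% (limma, adjusted p = 0.762), which is 0.049 on the log2 scale. It was −0.0029 after quantile normalization and 0.106 without the 5 transthyretin-rich arrays (adjusted p = 0.533), and 0.028 without 3 months replicate 9.

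Of the calcium-binding proteins, Pvalb had the narrowest spread of all 9 members. Its means were 1179 ± 116, 1150 ± 97.0, 1150 ± 95.2 and 1173 ± 78.5 at 3, 6, 9 and 12 months (SD, n = 9 each) and 1132 ± 58.7 at 23 months (SD, n = 13). The oldest animals lay between 1010.5 and 1234.6, against 1048.6 to 1392.8 in the youngest. The difference was −3.71% with an interval of −10.1% to 3.11% (limma, adjusted p = 0.679). On the log2 scale it was −0.055, and 0.014 without the 5 transthyretin-rich arrays (adjusted p = 0.955). Without 3 months replicate 8 alone it was −0.024.

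Calb2 had the largest difference of a member between neighbouring ages. Its means were 291 ± 38.0, 289 ± 55.0, 254 ± 31.3 and 332 ± 90.1 at 3, 6, 9 and 12 months (SD, n = 9 each) and 289 ± 62.4 at 23 months (SD, n = 13). The 12-month animals spanned 201.3 to 479.6 with a median of 328.8, against 212.6 to 289.8 with a median of 266.9 at 9 months. That step was 27.4% (95% interval 6.56% to 52.4%), with an unadjusted p of 0.00885 and an adjusted p of 0.996. At 23 against 3 months the difference was −2.06% with an interval of −16.9% to 15.4% (limma, adjusted p = 0.955). In log2 it was −0.030, and leaving out each array in turn gave −0.069, without 23 months replicate 5, to 0.019, without 3 months replicate 8, so its sign was not settled. Without the 5 transthyretin-rich arrays it was −0.013 (adjusted p = 0.987).

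The members differed in how much they varied between animals of the same age. The SD of log2 signal within ages was 0.109 for Pvalb and 0.116 for Gad1, and 10.6% and 13.9% of all genes tested varied less. It was 0.128 for Cck and 0.133 for Sst, and 20.8% and 23.7% of all genes varied less. Slc32a1 at 0.165, Vip at 0.170 and Npy at 0.193 lay nearer the median of all genes, 0.181. Gad2 and Calb2 were the loosest, with SDs of 0.310 and 0.286, and 87.1% and 83.5% of all genes varied less. Their intervals at 23 against 3 months are accordingly the widest.

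The next question was whether the members varied together between animals once the mean of each age was removed, and few pairs did. Of the 36 pairs of members 2 had an adjusted p under 0.05 by permutation of animals within ages, 19 had a Pearson r above 0, the median r was 0.0086 and the range was −0.351 to 0.577. The share of such pairs among all pairs of genes tested was not computed, so the count has no background beside it. The 2 enzymes of GABA synthesis had r close to 0 over the 49 animals (r = 0.064, Spearman's rho = 0.192, adjusted p = 0.753 and 0.489 by permutation).

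Sst and Cck were the closest pair of members, with r = 0.58 and rho = 0.54 over 49 animals (permutation p = 7e-05 and 0.00031, adjusted p = 0.0025 and 0.011 over 36 pairs). Genes outside the members came closer to each, with r = 0.67 for Sst with Nit1 and 0.70 for Cck with Sumo3. Without the 2 animals farthest from the median of Sst r was 0.56, and without the 5 transthyretin-rich arrays it was 0.51 (adjusted p = 0.020 and 0.045 by permutation). Within ages r was 0.67, 0.66, −0.031, 0.78 and 0.33 at 3, 6, 9, 12 and 23 months, above 0 in 4 of 5. Over the 49 animals, one with much somatostatin transcript for its age thus tended to have much cholecystokinin transcript. Whether r differed between ages was not tested.

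Slc32a1 and Npy were the other pair, with r = 0.44 and rho = 0.44 (permutation p = 0.0017 and 0.0029, adjusted p = 0.031 and 0.053 over 36 pairs). By rank the pair therefore did not pass. The r was 0.40 without the 2 animals farthest from the median of Slc32a1, where the adjusted p was 0.124, and 0.53 without the 5 transthyretin-rich arrays. Within ages it was −0.011, 0.77, 0.79, 0.21 and 0.34 at 3, 6, 9, 12 and 23 months. The lowest Slc32a1 signal of the 9-month animals, 306.1 in replicate 1, came with their lowest Npy signal, 1148.7. Replicate 1 also had the lowest Slc32a1 signal at 3 and 6 months (348.7 and 342.2). Replicate 3 had the highest signal of both genes at 6 and at 9 months, the ages of largest r. At 23 months replicate 15 had the highest signal of both genes (503.6 and 1699.2). At 3 and 12 months the highest signals of the 2 genes were in different animals.

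Sst and Vip had r above 0 in 5 of 5 ages (r = 0.37, adjusted p = 0.133 by permutation), and Pvalb and Vip likewise (r = 0.35, adjusted p = 0.133). Without the 5 transthyretin-rich arrays r was 0.33 for Sst with Vip and 0.22 for Pvalb with Vip. For Pvalb with Vip it was 0.25 without the 2 animals farthest from the median of Pvalb. Npy and Pvalb had r below 0 in all 5 ages (r = −0.35, adjusted p = 0.133). None of these 3 pairs passed. All pairs share the array of each animal, so a fault of 1 array would enter both genes of a pair. The permutations did not take the replicate number into account.

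**Figure D3:**
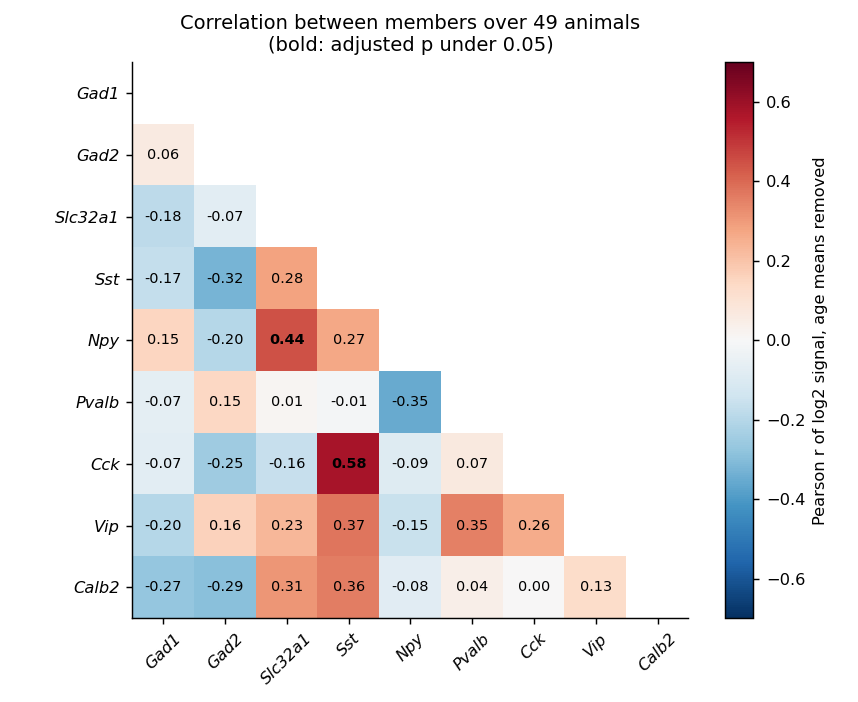
Pearson r between the log2 signals of each pair of the 9 genes over 49 animals after the mean of each age was removed, as a colour scale and as numbers, with an adjusted permutation p under 0.05 in bold. Sst with Cck (0.58) and Slc32a1 with Npy (0.44) are the 2 in bold.

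Tissue composition was set beside the members in the same way. The mean log2 signal of the marker lists of CA1 pyramidal neurons, dentate granule cells and choroid plexus was taken over the 7, 4 and 4 genes tested. It was correlated with each member, 27 pairs in all, of which 1 passed. The share that would pass among all genes was not computed. Calb2 was lower in animals with a higher CA1 pyramidal level (r = −0.54, rho = −0.54, permutation p = 9e-05 and 0.00013, adjusted p = 0.0024 and 0.0035). The r was below 0 in every age, at −0.66, −0.31, −0.74, −0.47 and −0.72 at 3, 6, 9, 12 and 23 months. Without the 2 animals farthest from the median of the list r was −0.46, and without the 5 transthyretin-rich arrays it was −0.51. The dentate granule list had r = 0.36 with Slc32a1 and 0.35 with Calb2, with adjusted p of 0.13 for both by permutation. The summed signal of the 7 CA1 pyramidal markers was 13196.1 to 17636 at 23 months, against 14347 to 18419.3 at 3 months, and that of 5 of 8 dentate granule markers was 3511.7 to 5917.1 against 3381.6 to 5717.9. None of the CA1 pyramidal markers was near 0, while the dentate marker Tdo2 reached a signal as low as 1.1, and the part of tissue composition in the spread of Calb2 was not tested.

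**Figure D4:**
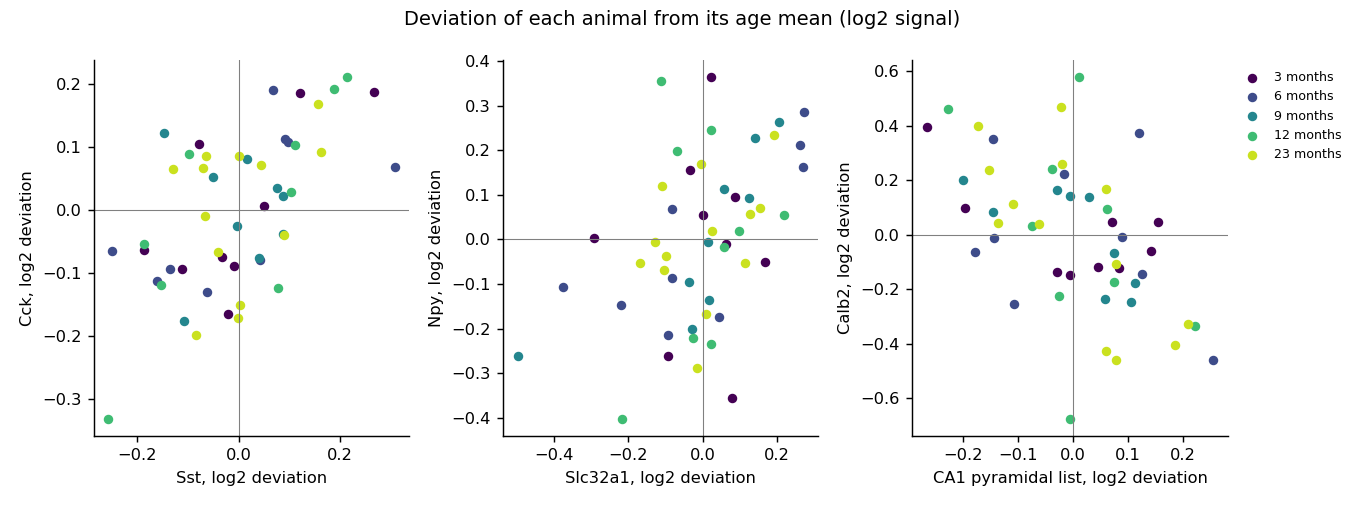
Deviation of each animal from the mean of its age, in log2 signal, for Cck against Sst, Npy against Slc32a1 and Calb2 against the mean of 7 CA1 pyramidal markers, with 1 point per animal coloured by age. The first 2 panels slope up (r = 0.58 and 0.44) and the third slopes down (r = −0.54).

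The genes most like each member over the 49 animals, age means removed, are given as a description, 3 for each member by Pearson r. For Gad2 these were Lrrc7, which encodes a scaffold of excitatory synapses (r = 0.76), Tmod2 (0.72), a neuronal cap of actin filaments, and Sv2b (0.71), a synaptic vesicle glycoprotein. For Gad1 they were Hddc3 (0.67), Mark3 (0.67) and Tmbim1 (0.63). For Cck they were Sumo3 (0.70), Aars1 (0.67) and Ntrk2 (0.66), the last the receptor of brain-derived neurotrophic factor. For Calb2 they were Cdk14 (0.67), Thumpd1 (0.66) and Grsf1 (0.65), and for Sst Nit1 (0.67), LOC102549726 (0.65) and Sccpdh (0.64). The closest genes to Slc32a1 were Slc8a2 (0.62), a sodium-calcium exchanger, C9 (0.61) and Cmc2 (0.58), and those to Vip were Focad (0.61), Rabep1 (0.58) and Dcn (0.56). Npy had Tesc (0.58), Shank3 (0.58) and Nsmf (0.58), and Pvalb had Ndufa8 (0.60), C7h19orf25 (0.53) and Nap1l4 (0.49). Each value is among the 3 largest of all genes tested, a choice that makes it large.

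The genes around the members were examined by list. Of 15 transcription factors of interneuron development 6 were on the array and 5 were tested, and none passed in any comparison. Between 23 and 3 months (23 minus 3) 4 were above 0 and 1 below, with a median log2 difference of 0.061 against 0.00082 over all genes. Maf, a factor of Sst and Pvalb cells in mouse, averaged 304 ± 51.5 at 23 months (SD, n = 13) against 248 ± 32.8 at 3 months (SD, n = 9), a log2 difference of 0.29 with an adjusted p of 0.068 by limma. A second Maf probe set, in a fit of every probe set, had a difference of 0.25 (limma, adjusted p = 0.438). Dlx5, a factor of the progenitors of interneurons, had a difference of 0.066 (adjusted p = 0.836).

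Of 22 other interneuron markers 17 were on the array and 15 tested, and 1 was called, by its slope, against 5.12% of all genes. With 15 genes, a count of 1 lies near what that share gives. Kit, a receptor tyrosine kinase found on interneurons, fell with age by 0.0134 on the log2 scale per month (limma, adjusted p = 0.025). It averaged 345 ± 54.3, 330 ± 43.7, 335 ± 34.2 and 305 ± 52.1 at 3, 6, 9 and 12 months (SD, n = 9 each) and 287 ± 41.3 at 23 months (SD, n = 13). The call was lost without 23 months replicate 3, 5 or 15 (adjusted p = 0.065, 0.055 and 0.059) and without the 5 transthyretin-rich arrays (0.089), and at 23 against 3 months Kit did not pass (0.082). Over the list the slope was above 0 for 7 genes and below 0 for 8, with a median of −0.0009 on the log2 scale per month against −2.3e-06 over all genes.

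Another list held 14 genes that take up GABA, break it down, supply its precursors or set the chloride gradient it works on. Of these 11 were on the array and 9 tested, and 1 was called by slope, against 5.12% of all genes. Slc12a2, the cotransporter NKCC1 that brings chloride into cells, rose with age by 0.0107 on the log2 scale per month (limma, adjusted p = 0.020). It averaged 2436 ± 285, 2388 ± 258, 2624 ± 334 and 2614 ± 225 at 3, 6, 9 and 12 months (SD, n = 9 each) and 2798 ± 324 at 23 months (SD, n = 13). The call was lost without 23 months replicate 5 (adjusted p = 0.054) and with each array centred on its median (0.064), and at 23 against 3 months Slc12a2 did not pass (0.096). Over the list 5 slopes were above 0 and 4 below, with a median of 0.00095. Slc12a5, the cotransporter KCC2 that carries chloride out of neurons, had a difference of 0.066 at 23 against 3 months (adjusted p = 0.598). Slc12a2 is also made by choroid plexus and glia, and its slope without the 5 transthyretin-rich arrays was 0.0118 (adjusted p = 0.023).

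Of 16 receptors of GABA and of these peptides 14 were on the array and 10 tested. All 10 slopes were below 0, with a median of −0.0036 per month against −2.3e-06 over all genes, of which 50% were lower. By slope 1 receptor was called, against 5.12% of all genes. Single contrasts of the same list were less one-sided, with 3 differences above 0 and 7 below at 23 against 3 months, 6 above and 4 below at 12 against 3, and 5 and 5 at 6 against 3. Sstr2, a receptor of somatostatin, fell by 0.0143 on the log2 scale per month (limma, adjusted p = 0.037). It averaged 439 ± 110, 419 ± 32.5, 433 ± 47.7 and 440 ± 49.0 at 3, 6, 9 and 12 months (SD, n = 9 each) and 359 ± 65.6 at 23 months (SD, n = 13), so its first 4 means were close. The call was lost without any of 12 arrays taken singly, 4 of 3 months (replicates 1, 2, 7 and 8) and 8 of 23 months (replicates 3, 5, 9, 10, 11, 13, 14 and 15), with an adjusted p of up to 0.101. It was also lost without the 5 transthyretin-rich arrays (0.063), with no filter on dim genes (0.056) and, as given in the last section, with the replicate number as a block. A second Sstr2 probe set had a slope of −0.0072 and did not pass (adjusted p = 0.307). At 23 against 3 months Sstr2 did not pass (0.120).

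Of 18 other neuropeptides 16 were on the array and 11 tested, and of 15 genes of peptide processing and dense-core vesicles 14 were on the array and all of these tested. None of either list passed in any comparison. The neuropeptides had, at 23 against 3 months, 5 differences above 0 and 6 below, with a median log2 difference of −0.13, and the processing genes 5 above and 9 below, with a median of −0.022, against 0.00082 over all genes. Vgf, a secreted peptide precursor induced by neurotrophins, averaged 592 ± 150.2 at 23 months (SD, n = 13) against 747 ± 133 at 3 months (SD, n = 9), a log2 difference of −0.36 (limma, adjusted p = 0.115). Tac1, the precursor of substance P, had a difference of −0.47 (adjusted p = 0.220) at signals near the filter. Chga, the granule protein chromogranin A, averaged 707 ± 88.1 at 23 months (SD, n = 13) against 809 ± 89.9 at 3 months (SD, n = 9), a difference of −0.20 (limma, adjusted p = 0.114). Cpe, the carboxypeptidase that trims peptide precursors, had a difference of 0.086 (adjusted p = 0.229).

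Among the 7 markers of CA1 pyramidal neurons tested 1 passed at 23 against 3 months, against 3.26% of all genes. By slope 2 passed, against 5.12% of all genes. All 7 differences at 23 against 3 months were below 0, with a median of −0.12 on the log2 scale. Pou3f1, a transcription factor of those neurons, averaged 768 ± 126 at 23 months (SD, n = 13) against 958 ± 129 at 3 months (SD, n = 9), a fall by 0.32 on the log2 scale (limma, adjusted p = 0.014). Its slope passed without each of the 49 arrays in turn. Dkk3, a secreted Wnt antagonist homologue, fell by 0.0074 on the log2 scale per month (adjusted p = 0.037), a call lost without any of 12 arrays taken singly (3 months replicates 2, 4 and 6, 6 months replicate 6, and 23 months replicates 3, 4, 5, 10, 11, 13, 14 and 15; adjusted p up to 0.097) and without the 5 transthyretin-rich arrays (0.149). Quantile normalization, array weights and the replicate number as a block also ended the Dkk3 call, as given in the last section. Of the lists of other tissue, 4 dentate granule, 2 CA3 pyramidal, 4 choroid plexus and 1 blood gene were tested, and 0 passed in any comparison. By unadjusted p under 0.05 at 23 against 3 months, 0, 1, 0 and 0 of these did, against 14.4% of all genes. In that contrast all 4 dentate granule genes were above 0, with a median log2 difference of 0.083, and the 2 CA3 pyramidal genes were below 0. Of the choroid plexus genes 1 was above and 3 below, and the blood gene was above.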

How the data were processed

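RNA of rat CA1 was hybridised to 49 arrays, 1 per animal, grouped by the age in the sample labels. Where the design text has 25 months in one sentence and 23 in another for the oldest rats, the labels' 23 was used. The deposited values are linear intensities that the authors made with MAS5 (per the submitters' processing notes) and, per the series' design text, scaled to 500. The MAS5 version is not given in the sources used here. No per-sample column was left unused (0), and the number of arrays limits the precision.

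Symbols came from the platform annotation and were updated by Entrez ID through RefSeq (GRCr8), which matched 12748 of 12783 probe sets. Signals under 16 were set to 16 and log2 was taken. Each gene was represented by its probe set of highest mean log2 signal and tested if that reached 100 on at least 5 arrays, which left 8093 genes. limma 3.58.1 in R 4.3.3 (lmFit, eBayes with a variance trend) fitted a mean per age to all 49 arrays, and in a second fit age in months. P-values were adjusted by the Benjamini-Hochberg method over all genes tested, and a call is an adjusted p under 0.05. Percent differences are these log2 differences turned back to the linear scale. Correlations used log2 signals less the age means, with 100000 permutations of animals within ages (20000 in the alternatives).

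The 9 members and the gene lists were chosen with earlier results of these data known. The genes named were every member, the 3 genes most like each, and of each list every gene called or the 2 of smallest p at 23 against 3 months; Slc12a5 was added as the counterpart of Slc12a2, after its value was seen. Calb1, Prox1, Tac1, Pnoc and Cort stand in 2 lists each. Simulated data for 8093 genes at 23 against 3 months, with 50 genes changed at each size, tested the limma step. The numbers recovered were 24 at a log2 change of 0.25, 45 at 0.5, 50 at 1 and 50 at 2, and 8 of 177 calls were false. Behaviour scores are not analysed here.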

Additional observations from a re-analysis of the deposited data

Results flagged for a closer look

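In 3 of 40 groups of 9 animals, over the members and a second Gad1 probe set, 1 animal stood apart from the rest by Dixon's criterion, which chance alone meets in about 1 group in 20. The group of 23 months, with 13 animals, was not tested. Gad2 was at 170.5 in 12 months replicate 3, where the other 8 animals lay between 306.7 and 380.8. Slc32a1 was at 306.1 in 9 months replicate 1, against 421.9 to 498.7 in the others. Calb2 was at 380.4 in 3 months replicate 8, one of the transthyretin-rich arrays, against 261.2 to 309.4 in the others.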

How the results depend on the processing

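No member passed in any of the 8 comparisons with a floor of 64, a filter of 25 arrays or none, quantile normalization, median centring, every probe set, no variance trend, array weights, the dentate granule list as a covariate, without the 5 transthyretin-rich arrays, or without any 1 array, nor in the 6 contrasts of 2 ages fitted on only the ages compared. The exception was the replicate number taken as a block, under which 1 member, Gad2, passed at 23 against 3 months (log2 difference −0.406, adjusted p = 0.033) and by slope (−0.0199 per month, adjusted p = 0.014). Nothing in the labels ties a number to a litter or day, so the numbers were not taken as pairs. Deviations of the 86 same-numbered pairs correlated between −0.131 and 0.361, 33 of them over 0.1. Their median was 0.055, against −0.0097 for differently numbered pairs. Some numbers recurred among the extremes. Gad2 was lowest in replicate 3 at 3, 9 and 12 months, though in replicate 2 at 6 and replicate 4 at 23 months. It was highest in replicate 9 at 3, 6 and 9 months, in replicate 1 at 12 and in replicate 10 at 23 months. What the numbers stand for was not tested. In the block fit numbers that only 23 months has (10, 11, 13, 14 and 15) add nothing to the age contrasts or slopes, those of Gad2 included. The block gave 28 genes called at 12 against 3 months in place of 18, turned Calb2 to 0.039, and ended the slope calls of Slc12a2 (adjusted p = 0.155), Sstr2 (0.398) and Dkk3 (0.388). Quantile normalization (0.058) and array weights (0.060) also ended that of Dkk3. Counts of all genes also moved. Without the 5 transthyretin-rich arrays 173 genes passed at 23 against 3 months in place of 264, and 2 at 6 against 3 months in place of 1. Array weights gave 37 at 12 against 3 months. Fits of only the ages compared gave 14 at 23 against 12 months in place of 29, and 0 at 6 against 3 months. Leaving out each array in turn gave 16 to 33 at 23 against 12 months, with 16 lacking 23 months replicate 3, 17 lacking 12 months replicate 3 or 5, and 19 lacking 12 months replicate 2. A plain analysis of variance at an unadjusted p of 0.05 gave 757 genes in place of 152. Differences at 23 against 3 months changed sign for Sst (0.019) and Pvalb (0.014) without the 5 arrays, for Cck (−0.0029) after quantile normalization and for Calb2 with single arrays left out (−0.069 to 0.019), all far from the threshold. Of the 2 pairs of members 1 remained, Sst with Cck, without the 2 farthest animals (adjusted p = 0.020) and 1, the same, with age means kept (0.0036). The causes were not tested.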
